A study of Homo sapiens with 12 samples.

Results

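The miR-30 family was followed through the small RNA libraries of Mono Mac 6 (MM6) cells, a human monocytic cell line, with and without a knockout of 5-lipoxygenase (5-LO). Its members were taken as every arm of miR-30a, miR-30b, miR-30c, miR-30d and miR-30e entered as a mature miRNA, which gave 9 arms in each of the 2 deposited tables, of 285 mature miRNAs without LPS and 262 with LPS. The study sequenced 12 libraries, 3 in each of 4 groups, which were wild-type cells, 5-LOΔ cells, wild-type cells with LPS and 5-LOΔ cells with LPS (WT, 5LO-KO, WT + LPS and 5LO-KO + LPS in the plots). All 4 groups had first been matured for 72 h, by the sample labels, with calcitriol at 50 nM and TGF-β at 1 ng/mL, and the LPS groups received 1 µg/mL LPS for 6 h. 5-LOΔ cells are single-cell clones made with CRISPR/Cas9, and the labels name neither the clone behind a library nor separate cultures. The 5-LO mRNA is not among small RNAs, and no check of the genotype was possible.

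MicroRNAs are cut from hairpin precursors, first by Drosha and then by Dicer, which leaves a duplex of a 5p and a 3p arm. One arm is usually kept in Argonaute as the guide strand, and its seed, the bases near the 5′ end, pairs with target mRNAs. The miR-30 family is known for guide strands on the 5p arm with a common seed, for 3p arms that can also be loaded, and for roles in cell differentiation, autophagy and the epithelial state.

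The mature sequences that show how the family is built are given 5′ to 3′, with the seed in capitals. They are RefSeq sequences of build GRCh38.p14, matched for 5 of the 9 listed arms. 5p arms are shown for the seed of the family, and the 3p arms of miR-30a and miR-30e for the seed they share.
miR-30a-5p: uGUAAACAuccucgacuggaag
miR-30c-5p: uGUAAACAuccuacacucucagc
miR-30e-5p: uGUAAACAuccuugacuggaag
miR-30a-3p: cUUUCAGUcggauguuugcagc
miR-30e-3p: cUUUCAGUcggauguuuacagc
The 3 5p arms share the seed GUAAACA. Counted from 1 at the 5′ end, miR-30e-5p differed from miR-30a-5p by the single substitution C13U, and miR-30c-5p differed from miR-30e-5p at 5 bases of their common length, starting with U13A and G14C behind the seed. The arms miR-30a-3p and miR-30e-3p share the seed UUUCAGU and differ by 1 base, G18A. With 1 base between them, reads of the rare miR-30a arms could be confused with reads of the abundant miR-30e arms if the alignment allowed mismatches, and how many it allowed is not stated in the sources used here.

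The hairpin of miR-30e carries the arm pair on which the results below turn, with both arms in capitals and 20 bases between them.
MIR30E: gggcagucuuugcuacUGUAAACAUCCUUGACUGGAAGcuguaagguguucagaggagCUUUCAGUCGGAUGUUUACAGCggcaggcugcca
In GRCh37, the hg19 build of the study, MIR30E lies on the forward strand at chr1:41220027-41220118, inside an intron of NFYC, the gene of a subunit of the NF-Y transcription factor. MIR30C1 follows in the same host gene at chr1:41222956-41223044, also in an intron, 2837 bases further on. The second miR-30c hairpin, MIR30C2, lies on the reverse strand at chr6:72086663-72086734 in an exon of the long noncoding RNA gene LINC00472, and MIR30A at chr6:72113254-72113324 in an intron of it. MIR30B and MIR30D are neighbours on one strand with 4268 bases between them. miR-30c-5p has the same sequence in MIR30C1 and MIR30C2, so its reads cannot be assigned to one hairpin.

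Each deposited value is the authors' mean of the normalised read counts of the 3 libraries of a genotype, with no spread between replicates. The values of single libraries could be recovered for the 4 rarest arms and in part for miR-30b-5p and miR-30c-5p, and not for the 3 others, so most comparisons have no test over libraries. A 95% counting interval, which covers counting error only, was therefore computed for the ratios. A wider interval adds the spread between libraries that was measured in other mature miRNAs of the same group, those with a mean from 5 to 20 whose reads could be recovered library by library (15 to 39 miRNAs a group). In wild-type cells with LPS no mean from 10 to 20 could be recovered in 1 way (0 of 51). The 15 miRNAs of that group therefore had means from 5 to 10 only. That spread, beyond counting error, was a coefficient of variation of 18.6% in wild-type and 39.8% in 5-LOΔ cells, and of 36.1% and 27.2% with LPS. It was taken from miRNAs of low level and may differ from that of the abundant arms, which was not tested. The tables without and with LPS were normalised separately, so levels were compared within a table and only ratios or shares were compared between tables.

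The relative depth of the libraries, recovered from the low means, ranged from 0.665 to 1.72 as size factors, and the total reads of a library are unknown. In 5-LOΔ cells the library with the smallest size factor, and in wild-type cells with LPS the middle library by size factor, held the other recovered mature miRNAs at a median of 0.730 and 0.685 of their group's mean. These medians rest on 36 and 15 miRNAs of low level, and those of higher level were not examined. All 5 myeloid miRNAs checked (miR-223-3p, miR-142-3p, miR-142-5p, miR-21-5p and miR-146a-5p) were listed. Their summed means were 3081 in wild-type and 4549 in 5-LOΔ cells, and 3673 and 4253 with LPS. Most of each sum was miR-21-5p (2499, 3885, 2816 and 3188), while miR-223-3p stood at 93.8, 74.3, 60.4 and 58.0. Of 10 miRNAs of other cell types only miR-200c-3p was listed, at no more than 1.19. As these are bulk libraries, a change in the share of cells at one stage of differentiation and a change of RNA per cell cannot be told apart.

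The family was represented almost entirely by 4 guide strands and 1 3p arm. miR-30d-5p, the most abundant member, had a mean of 599.9 normalised counts in wild-type cells, 948 in 5-LOΔ cells, 502 in wild-type cells with LPS and 677 in 5-LOΔ cells with LPS. It ranked between 16 and 19 among all mature miRNAs and supplied 65.3%, 68.8%, 66.6% and 66.2% of the summed 5p level in these groups. miR-30e-5p, the guide arm of the hairpin printed above, had means of 206, 317, 174 and 222, or 21.7% to 23.1% of the 5p sum. These shares of both leading arms moved by only a few percentage points over the 4 groups.

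miR-30c-5p, the arm encoded by 2 hairpins, stood at 64.8, 78.5, 43.3 and 79.1 normalised counts. miR-30b-5p, whose gene neighbours that of miR-30d, stood at 46.7, 34.4, 33.5 and 44.2. The passenger-side arm miR-30e-3p reached 44.6, 109, 40.7 and 63.9, the level of a lesser 5p arm, and in 5-LOΔ cells it ranked 50 of 285, ahead of miR-30c-5p at 63. The order miR-30d-5p, miR-30e-5p and then the others held in all 4 groups, but the order of the other 3 did not.

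In wild-type cells miR-30c-5p and miR-30b-5p differed by a ratio of 1.39 with a counting interval of 1.12 to 1.72, and the wider interval of 0.963 to 2.00 included 1. miR-30b-5p and miR-30e-3p did not differ beyond counting error there (ratio 1.05, 0.829 to 1.32), nor did miR-30c-5p and miR-30e-3p in wild-type cells with LPS (1.06, 0.829 to 1.36). In 5-LOΔ cells miR-30b-5p was at 0.315 of miR-30e-3p, with both intervals below 1 (wider interval 0.193 to 0.512). miR-30c-5p is 23 and miR-30e-3p 22 bases long. The preferences of ligation and amplification for single sequences were not measured.

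**Figure D1:**
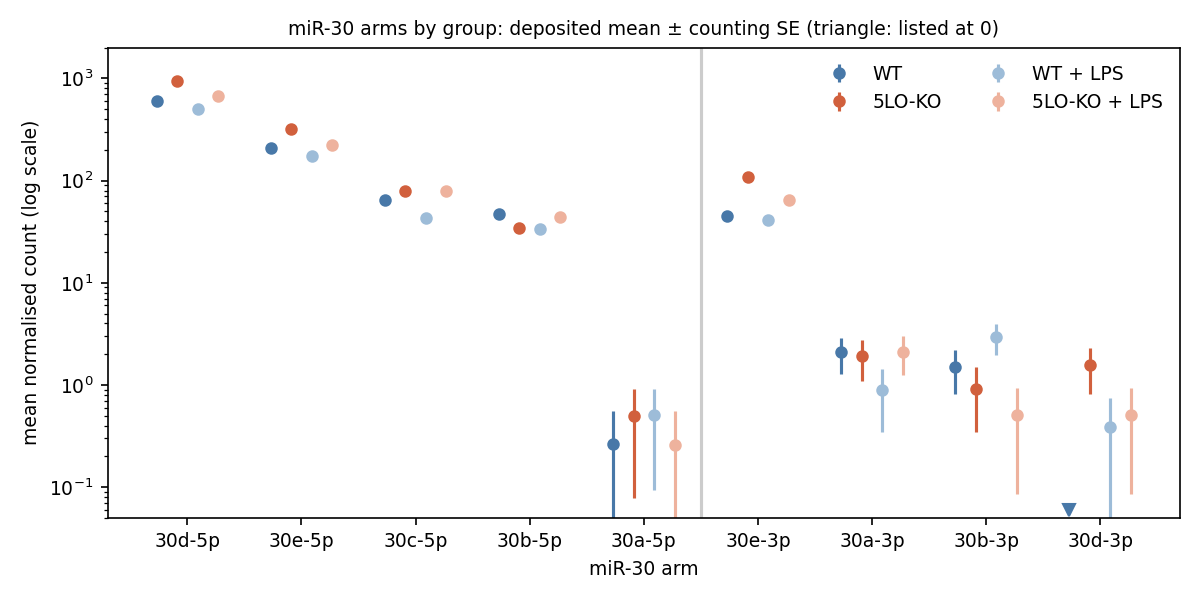
Deposited mean normalised count of each miR-30 arm (log axis) in the 4 groups, as the mean of 3 libraries with a bar of 1 counting standard error, and a triangle where the arm was listed at 0. 4 of the 5 5p arms and miR-30e-3p lie between 33.5 and 948, and the other 4 arms below 3.

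The 4 remaining arms were at the edge of detection. The reads of single libraries could be recovered for them, and they are given with libraries ordered by size factor, largest first. miR-30a-5p, a guide strand of the family, had 1 read in wild-type cells, 2 in 5-LOΔ cells, 2 in wild-type cells with LPS and 1 in 5-LOΔ cells with LPS over all 3 libraries of a group. miR-30a-3p had 7, 6, 3 and 6 reads in all, and was the miR-30a arm with more reads in each group. Both arms of miR-30a thus had single-digit counts in every group.

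miR-30b-3p had 0, 0 and 4 reads in the wild-type libraries and 0, 0 and 2 reads in the 5-LOΔ libraries. With LPS it had 5, 0 and 4 reads in wild-type and 2, 0 and 0 in 5-LOΔ cells, a ratio of 5-LOΔ to wild type of 0.261 with an exact interval of 0.0274 to 1.26 on the pooled reads. miR-30d-3p, the partner of the most abundant member, was listed at 0 in wild-type cells and had 2, 3 and 0 reads in the 5-LOΔ libraries. It had 2 reads in each genotype with LPS, all in 1 library. None of these 4 arms differed between genotypes beyond its exact counting interval where one could be formed. No fold is given for miR-30d-3p without LPS, since it was listed at 0 in wild-type cells. No 3p arm of miR-30c was listed in either table.

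Without LPS, the knockout comparison asks which small RNAs differ when 5-LO is missing. The summed 5p level was 918 normalised counts in wild-type and 1379 in 5-LOΔ cells, a log2 ratio of 0.59 with a counting interval of 0.52 to 0.66. The wider interval ran from -0.13 to 1.31 and included 0. Of the 5 arms with an average of both means of at least 10, 3 were at least 1.5-fold higher in 5-LOΔ cells (miR-30d-5p, miR-30e-5p and miR-30e-3p) and none was 1.5-fold lower. Among all 111 mature miRNAs of that level, 23.4% were that much higher (26) and 4.5% lower (5).

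Most mature miRNAs had a higher mean in 5-LOΔ cells on the deposited scale. The median of these 111 mature miRNAs was a log2 ratio of 0.17 above 0, and when both genotypes were set to equal sums of mature miRNAs the split of all calls became 15 higher and 9 lower. On that scale only miR-30e-3p of the family was 1.5-fold higher, and miR-30b-5p was 1.5-fold lower. Relative to the median mature miRNA, miR-30d-5p was higher by 0.49 and miR-30e-5p by 0.45 on the log2 scale.

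miR-30e-3p showed the widest difference among the arms with an average of at least 10. Its mean was 44.6 in wild-type and 109 in 5-LOΔ cells, a ratio of 2.45 and a log2 ratio of 1.29 (counting interval 1.00 to 1.58). The wider interval, 0.52 to 2.07, was also above 0. Its partner miR-30e-5p was 1.54-fold higher (log2 0.62, counting interval 0.47 to 0.77) and miR-30d-5p 1.58-fold higher (log2 0.66, 0.57 to 0.75), and for both the wider interval included 0, running from -0.11 to 1.35 and from -0.06 to 1.38. miR-30c-5p was 1.21-fold higher (log2 0.28, 0.00066 to 0.55), and its wider interval of -0.49 to 1.04 also included 0.

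miR-30b-5p was the only one of the 5 arms with a lower mean in 5-LOΔ cells, and its reads could be recovered in each library once the reads of its precursor entry were used together with it. The wild-type libraries held 62, 39 and 46 reads, or 49.6, 38.4 and 52.1 normalised counts (mean 46.7 ± 7.28 SD, n = 3). The 5-LOΔ libraries held 48, 40 and 18 reads, or 35.9, 42.3 and 24.8 normalised counts (34.4 ± 8.85 SD, n = 3). The groups overlapped, because 1 wild-type library lay between the 5-LOΔ libraries. The log2 ratio was -0.44 with a counting interval of -0.81 to -0.07 and a wider interval of -1.25 to 0.36. A two-sided exact permutation test of the means gave p = 0.2, where 3 against 3 libraries can give no p below 0.1.

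The 5-LOΔ library with the lowest miR-30b-5p value was the one in which the other recovered miRNAs were also low. With the libraries brought to one median level of those miRNAs, miR-30b-5p stood at 52.0, 38.4 and 53.5 in wild-type and at 31.4, 40.2 and 34.0 in 5-LOΔ cells, a log2 ratio of -0.45 with the same exact permutation p of 0.2. The groups still overlapped. These library values rest on the last printed digit of the means. With the rounding widened by 10%, a further set of reads also fitted each group, at 0.8004, 113 and 26.0 normalised counts in wild-type and 14.2, 25.4 and 63.5 in 5-LOΔ cells, which overlap too and have the same means. Leaving out single libraries gave log2 ratios from -0.62 to -0.26.

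miR-30c-5p could be resolved by library only on the assumption that each of its 2 precursor entries held an even share of the reads of a library, rounded down. This division was met in 5 of the 8 cases in which it could be checked, all 3 of miR-199a-3p among them. In wild-type cells 1 of the 2 sets of reads possible for mir-30c-2 met it in all 3 libraries, while mir-30c-1 held 38 reads where the even share of 72 was 36, and up to 3 reads beyond the even share were allowed. On that assumption the wild-type libraries held 43.2, 70.9 and 80.4 normalised counts, and those with LPS 49.4, 38.3 and 42.1. The latter set rests on the last printed digit, since 39.0, 45.7 and 45.1 also fitted with the rounding widened by 10%. For 5-LOΔ cells 2 sets of reads gave the deposited mean, either 83.1, 79.4 and 73.1 or 20.2, 208 and 6.90, and for 5-LOΔ cells with LPS either 57.7, 93.4 and 86.2 or 10.0, 62.3 and 165. The choice between them could not be made from the tables, so no test over libraries is given.

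**Figure D2:**
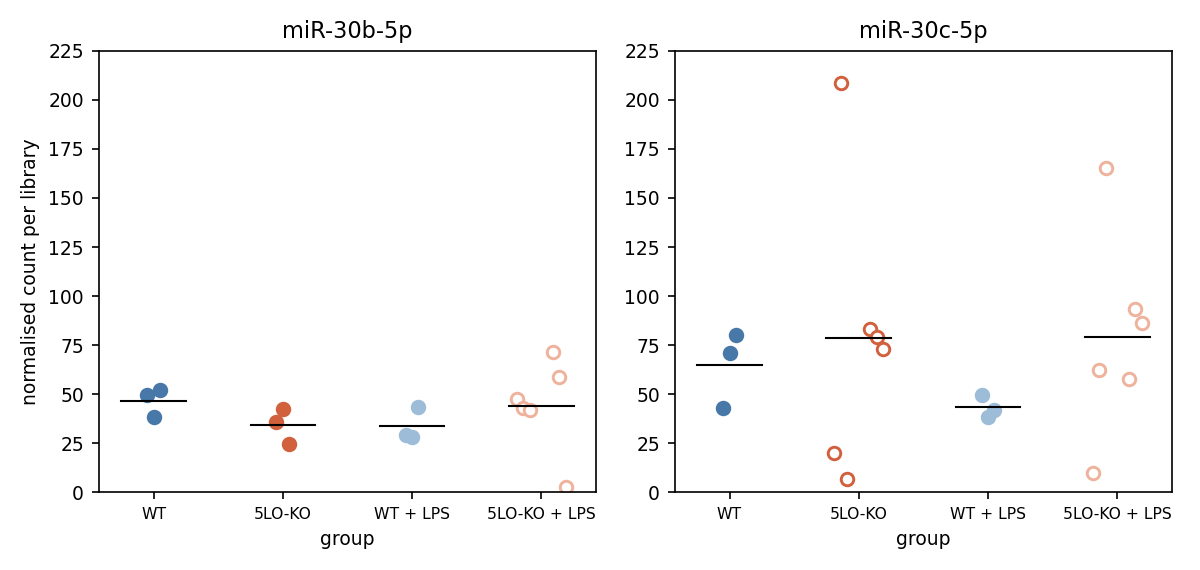
Normalised count of miR-30b-5p (left) and miR-30c-5p (right) in single libraries of the 4 groups, with the deposited mean as a line, where filled points are reads recovered in 1 way at the printed rounding and open points show, side by side, the 2 sets of reads that give the same mean. For miR-30b-5p the wild-type libraries (38.4 to 52.1) and the 5-LOΔ libraries (24.8 to 42.3) overlap.

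With LPS, the endotoxin of Gram-negative bacteria that monocytes sense through TLR4, the same comparison asks about the knockout in activated cells. The summed 5p level was 753 normalised counts in wild-type and 1022 in 5-LOΔ cells, a log2 ratio of 0.44 with a counting interval of 0.36 to 0.52 and a wider interval of -0.30 to 1.18. All 5 arms with an average of at least 10 had a higher mean in 5-LOΔ cells, as had 67 of all 108 mature miRNAs of that level. 2 of them were at least 1.5-fold higher, miR-30c-5p and miR-30e-3p, and none was 1.5-fold lower, where 18.5% of all 108 mature miRNAs of that level were higher (20) and 4.63% lower (5). With equal sums of mature miRNAs that split became 10 higher and 17 lower, and only miR-30c-5p stayed past the fold, while no arm changed its direction.

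Among the arms with an average of at least 10, miR-30c-5p had the highest ratio under LPS, with a mean of 43.3 in wild-type and 79.1 in 5-LOΔ cells. The ratio was 1.83 and the log2 ratio 0.87, with a counting interval of 0.56 to 1.18 and a wider interval of 0.07 to 1.67, both above 0 on the deposited scale. The log2 ratio was 0.80 with equal sums of all listed noncoding RNAs, 0.63 with equal mature sums and 0.73 with the median mature miRNA set to 0. A wider interval of the same width includes 0 under each of these scalings. miR-30e-3p was 1.57-fold higher (log2 0.65, 0.32 to 0.98), with a wider interval of -0.16 to 1.46. miR-30d-5p was 1.35-fold (log2 0.43, 0.33 to 0.53), miR-30b-5p 1.32-fold (0.40, 0.02 to 0.78) and miR-30e-5p 1.27-fold higher (0.35, 0.18 to 0.52). Their counting intervals were above 0 and their wider intervals all included 0. The wild-type libraries with LPS held 29.1, 28.0 and 43.6 normalised counts of miR-30b-5p (23.8, 31.7 and 45.1 with the rounding widened by 10%). In 5-LOΔ cells with LPS 2 sets of reads gave its mean, either 47.7, 43.1 and 41.9 or 71.5, 58.7 and 2.46, and in the first set 1 wild-type library lies among the 5-LOΔ libraries.

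**Figure D3:**
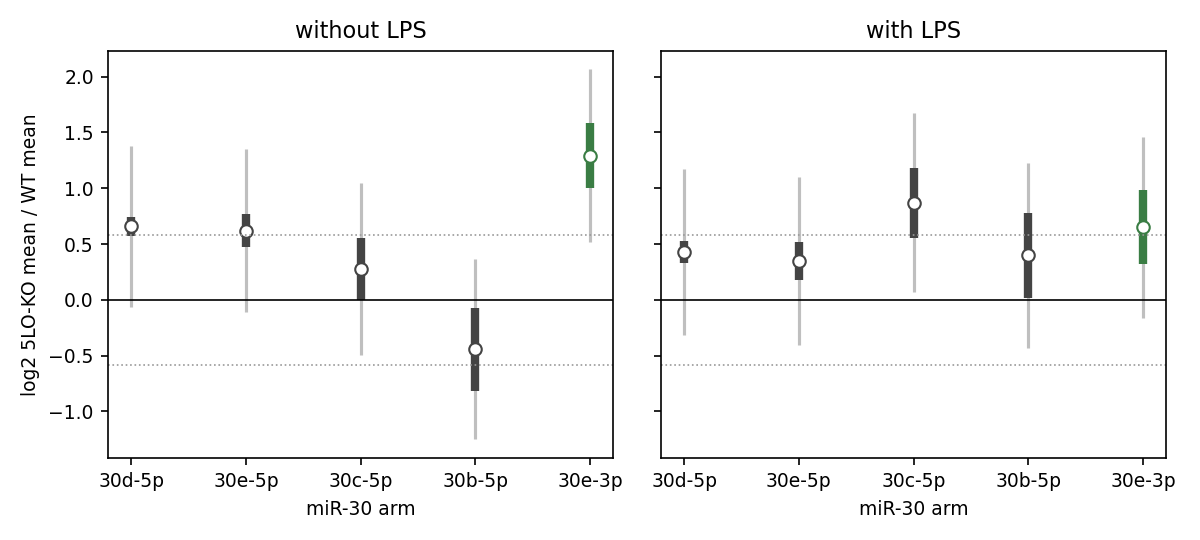
Log2 ratio of the 5-LOΔ mean to the wild-type mean for the 5 arms with an average of at least 10, without LPS (left) and with LPS (right), where thick bars are 95% counting intervals, thin bars the intervals widened by the spread between libraries of other miRNAs, and dotted lines mark a fold of 1.5. On the deposited scale, shown here, the wider interval lies above 0 for miR-30e-3p without LPS (0.52 to 2.07) and for miR-30c-5p with LPS (0.07 to 1.67), and includes 0 for the other arms shown. Under the other scalings tried, that of miR-30c-5p includes 0 and that of miR-30e-3p without LPS does not.

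Within a genotype, LPS and no LPS could be compared as shares of the mature miRNA sum. The summed 5p share was 0.897% in wild-type cells and 0.808% with LPS, a log2 ratio of -0.15 (counting interval -0.23 to -0.07). In 5-LOΔ cells it was 1.22% and 0.927%, a log2 ratio of -0.39 (-0.46 to -0.32). Both wider intervals included 0, from -0.82 to 0.52 and from -1.18 to 0.40. The shares depend on the abundant miR-3607 entries. Without them the shares were 1.58% and 1.39% in wild-type and 1.89% and 1.51% in 5-LOΔ cells, and the log2 ratios -0.19 and -0.33. In 5-LOΔ cells the share of miR-30e-3p was lower with LPS by a log2 ratio of -0.73 (-0.998 to -0.468), that of miR-30e-5p by -0.48 (-0.63 to -0.33) and that of miR-30d-5p by -0.45 (-0.53 to -0.36), whereas miR-30b-5p had the opposite sign, 0.40 (0.02 to 0.79). miR-30c-5p stood at 0.05 there (-0.22 to 0.32). In wild-type cells the share of miR-30c-5p was lower with LPS by a log2 ratio of -0.45 (-0.77 to -0.13), and that of miR-30b-5p stood at -0.34 (-0.71 to 0.03). miR-30e-3p, miR-30e-5p and miR-30d-5p stood at 0.01, -0.11 and -0.12 in wild-type cells, with counting intervals of -0.35 to 0.36, -0.28 to 0.06 and -0.22 to -0.02. Every one of these values had a wider interval that included 0.

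The ratio of the arms of miR-30e compares the 2 strands of one duplex, and the scaling between the genotypes cancels in it, although the size factors set the weight of each library in both means. The mean normalised count of 5p was 4.63 times that of 3p in wild-type cells (counting interval 3.85 to 5.57) and 2.91 in 5-LOΔ cells (2.55 to 3.31). With LPS it was 4.27 in wild-type (3.51 to 5.21) and 3.47 in 5-LOΔ cells (2.94 to 4.09). Without LPS the 5-LOΔ ratio was lower by a log2 change of -0.67 (-0.997 to -0.347), and with LPS by -0.30 (-0.67 to 0.07). The wider intervals, which treat the arms as if they varied separately between libraries, were -1.49 to 0.15 and -1.40 to 0.79.

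Set beside the other hairpins with both arms at an average of at least 10, the change of miR-30e without LPS was the lowest of 19, whose median was -0.05 and whose highest was 0.43. It was the only one past a fold of 1.5, or 5.26% of the 19. With LPS 5 of 19 hairpins had a change as low as that of miR-30e or lower, and 10.5% were past the fold (2 of 19), miR-30e not among them. For miR-30b the ratio of mean 5p to mean 3p was 30.9 (counting interval 12.3 to 77.9), 37.4 (10.9 to 128), 11.3 (5.68 to 22.4) and 86.3 (16.7 to 445) in the 4 groups, on 4, 2, 9 and 2 reads of 3p. Leaving out 1 library, where 3p reads were left, gave 19.98 to 22.5 in wild-type cells, 22.0 to 24.3 in 5-LOΔ cells and 8.15 to 19.6 in wild-type cells with LPS, and the fourth group could not be resolved by library. The change of this ratio from wild-type to 5-LOΔ cells was a log2 value of 0.27 without LPS (-1.95 to 2.49). With LPS it was 2.93 (0.37 to 5.50, wider interval 0.17 to 5.70), which rests on 2 reads of 3p in 5-LOΔ cells, too few for these approximate intervals to be firm.

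For miR-30d the ratio was 609 to 1321 where a 3p read was seen, with counting intervals that together ran from 209 to 8014. For miR-30a it lay between 0.121 and 0.568, on counts of 1 or 2 reads of 5p, and each of the 4 counting intervals (together 0.0105 to 4.198) included 1. In wild-type cells with LPS it ran from 0.218 to 1.302 when 1 library was left out, so the order of the miR-30a arms there rests on single libraries. In the other groups all 5p reads lay in 1 library, and without it no 5p read and no ratio above 0 was left.

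**Figure D4:**
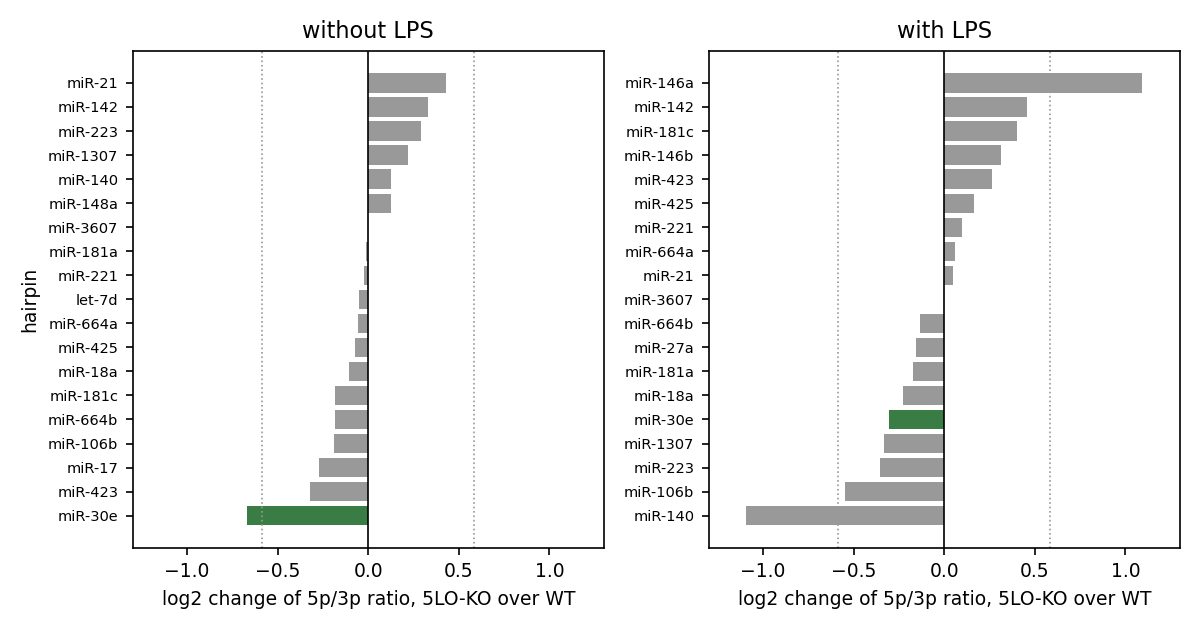
Log2 change of the 5p to 3p ratio from wild-type to 5-LOΔ cells for the 19 hairpins with both arms at an average mean of at least 10, without LPS (left) and with LPS (right), with dotted lines at a fold of 1.5. miR-30e, in green, is the lowest bar without LPS (-0.67) and lies inside the lines with LPS (-0.30).

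Ratios between 5p arms showed which members kept step. miR-30d-5p and miR-30e-5p come from separate loci, and their ratio was 2.91, 2.99, 2.88 and 3.06 in the 4 groups. The change of this ratio from wild-type to 5-LOΔ cells was 0.04 on the log2 scale without LPS, with a counting interval of -0.13 to 0.21, and 0.08 with LPS, from -0.11 to 0.28. The wider intervals, -0.73 to 0.81 and -0.97 to 1.13, leave room for larger changes.

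miR-30d-5p and miR-30b-5p come from neighbouring hairpins, and their ratio was 12.8 in wild-type cells, 27.6 in 5-LOΔ cells, 15.0 in wild-type cells with LPS and 15.3 in 5-LOΔ cells with LPS. 5-LOΔ cells had the higher ratio without LPS, with a log2 change from wild type of 1.10, a counting interval of 0.72 to 1.48 and a wider interval of 0.26 to 1.95. With LPS the change was 0.03 (counting interval -0.36 to 0.43, wider interval -1.07 to 1.14). From no LPS to LPS it was -0.85 in 5-LOΔ cells (-1.24 to -0.46), with a wider interval of -1.77 to 0.07 that included 0. miR-30e-5p and miR-30c-5p, which share the host gene NFYC for one of the miR-30c hairpins, had ratios of 3.18, 4.04, 4.03 and 2.80. The log2 change of this ratio from wild-type to 5-LOΔ cells was 0.34 without LPS (counting interval 0.03 to 0.66) and -0.52 with LPS (-0.88 to -0.17), of opposite sign. The wider intervals included 0 in both tables, from -0.47 to 1.16 and from -1.61 to 0.57.

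**Figure D5:**
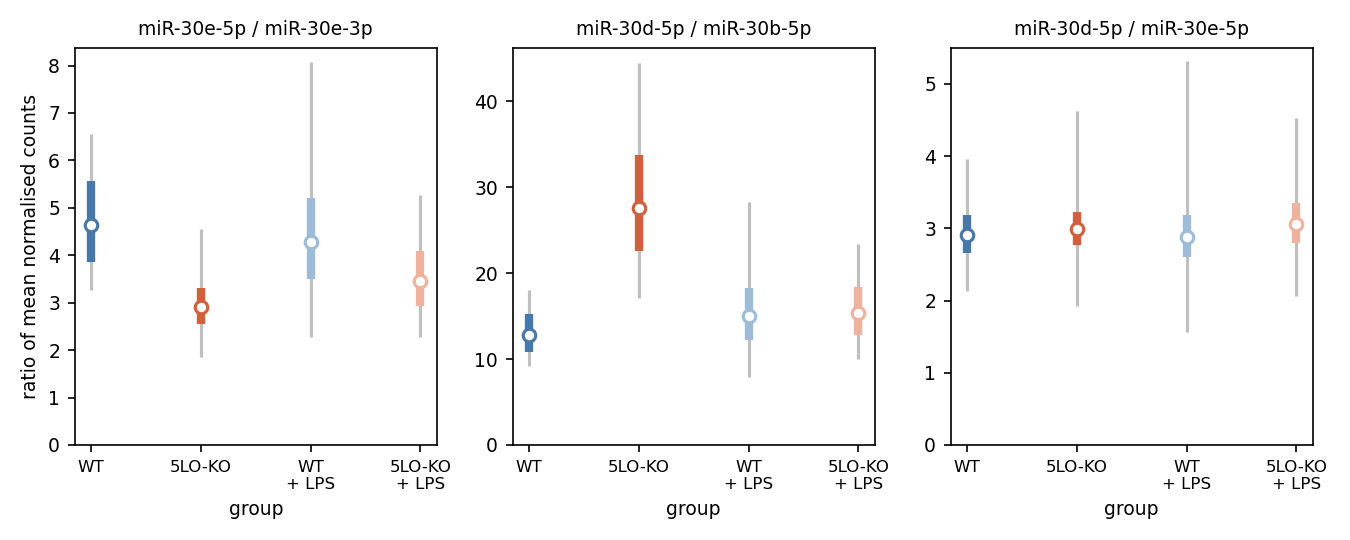
Ratio of mean normalised counts in each group for miR-30e-5p over miR-30e-3p (left), miR-30d-5p over miR-30b-5p (middle) and miR-30d-5p over miR-30e-5p (right), with thick bars for 95% counting intervals and thin bars for intervals widened by the spread between libraries of other miRNAs. The middle panel has 5-LOΔ cells without LPS at 27.6 and the other groups between 12.8 and 15.3, while the right panel stays between 2.88 and 3.06.

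The precursor entries of the tables repeated the reads of the arms. For mir-30a, mir-30d, mir-30e and, outside 5-LOΔ cells without LPS, mir-30b, the precursor value equalled the summed arms to within 0.0009 normalised counts in all 15 entries. mir-30b in 5-LOΔ cells was 0.92 above its arms, which was 2 reads in the library with the smallest size factor. mir-30c-1 and mir-30c-2 had the same value in 3 groups, and in wild-type cells mir-30c-1 stood at 32.9 against 32.2 for mir-30c-2, a difference of 2 reads. The precursor entries therefore added at most 2 reads to what the arms had shown.

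Other families were compared by counts and medians only. The 5 miR-30 arms with an average of at least 10, miR-30e-3p among them, had a median log2 ratio of 0.62 without LPS and 0.43 with LPS, where all mature miRNAs of that level had 0.17 and 0.14. The 4 5p arms alone, which are the like of the 5p arms of other families, had medians of 0.45 and 0.42. The 9 5p arms of let-7 and miR-98, a family that restrains growth and pluripotency genes, had medians of 0.49 and 0.37, with 4 and 3 arms at least 1.5-fold higher and 1 lower in each table. The 2 arms of miR-26 had medians of 0.23 and 0.26, and no arm of miR-29 reached the minimum level. Among 59 mature miRNAs outside the family with a mean of at least 50 in every group, miR-423-3p, let-7d-5p, let-7i-5p, let-7f-5p and let-7g-5p had the pattern most like the miR-30 5p sum, at distances of 0.05 to 0.17 in the centred log2 shares over the 4 groups. The nearest, miR-423-3p, had means of 126, 185, 98.3 and 137, against 918, 1379, 753 and 1022 for the miR-30 5p sum, and this likeness rests on 4 group means that share their libraries.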

How the data were processed

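Total RNA of 12 libraries was prepared with a small RNA kit, size-selected for precursor and mature miRNA and sequenced, and the authors trimmed adapters and annotated the reads against hg19 with omiRas. Not given in the sources used here are the aligner, mismatches allowed, versions and scaling. The 2 deposited tables hold, as signal values, the authors' mean of normalised counts of each genotype, and no values of single libraries. Their other 3 columns (log2 fold change, p-value and FDR) are the authors' comparison and were not used. No per-sample columns were left unmapped (0).

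Tests over libraries were therefore possible only where reads came back. Size factors and reads were worked out from means no larger than 10, given to 6 significant digits, as whole multiples of 3 steps, and every such mean had 1 solution. Means up to 100 were searched with the same steps, together with the precursor entry. Of means from 10 to 20 taken alone, none of 51 had 1 solution in wild-type cells with LPS, against 98.1% to 100% in the other groups. Called arms had a ratio of at least 1.5 at an average of at least 10, with no pseudocount. The 2 intervals (95%) are described with the results, and intervals between columns of one group used the spread after the libraries were brought to one median level. The recovery and the counting intervals were tried on simulated reads that varied by counting error only. The spread between libraries was not part of that simulation. Named were all miR-30 arms and precursors, the compared families by counts, and the 5 miRNAs most alike. Members, lists and rules were chosen with earlier results of these data known. Hairpins were placed with GENCODE lifted to GRCh37, and the 4 hairpins named with coordinates had there the same sequence as in RefSeq. The scripts ran in Python 3.11.15 with scipy 1.17.1, numpy 2.4.6, matplotlib 3.10.9 and pandas 2.3.3. Sums of all listed RNAs count mature reads again in precursor entries.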

Additional observations from a re-analysis of the deposited data

Results flagged for a closer look

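The knockout effect, as the log2 ratio of the 5-LOΔ to the wild-type mean, differed between the tables with and without LPS by more than counting error in all 5 arms with an average of at least 10, as it did in 44 of all 105 mature miRNAs of that level in both tables (41.9%). The difference with LPS less without LPS was 0.84 for miR-30b-5p (counting interval 0.31 to 1.37) and 0.59 for miR-30c-5p (0.18 to 1.01), and for miR-30b-5p the sign of the effect turned, from -0.44 to 0.40. It was -0.64 for miR-30e-3p (-1.08 to -0.20), -0.27 for miR-30e-5p (-0.50 to -0.05) and -0.23 for miR-30d-5p (-0.36 to -0.10). The wider intervals, which include the spread between libraries, all included 0, from -0.32 to 2.00 for miR-30b-5p and from -1.76 to 0.48 for miR-30e-3p. These values are on the deposited scale. With equal sums of all listed noncoding RNAs the effects without and with LPS were 0.49 and 0.36 for miR-30d-5p, and 0.45 and 0.28 for miR-30e-5p. On that scale these 2 arms did not differ beyond counting error. With equal mature sums or the median mature miRNA set to 0 they still did. No test over libraries could be made, because the values of single libraries could not be recovered in every group for any of the 5 arms.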

How the results depend on the processing

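No paired analysis was possible because the deposited columns are means over libraries and carry no replicate numbers. The log2 ratio of the summed 5p level stayed above 0 under every scaling tried. Without LPS it was 0.59 as deposited, 0.41 with equal sums of all listed noncoding RNAs, 0.44 with equal sums of mature miRNAs and 0.41 with the median mature miRNA set to 0, and leaving out miR-30d-5p (chosen after seeing the data) gave 0.44. With LPS it was 0.44, and 0.20 with equal mature sums and 0.30 with the median set to 0. The number of arms past the fold without LPS, 3, became 1 at a fold of 2 and 5 (4 higher, 1 lower) with no filter on the mean, where 51 of all 206 mature miRNAs were higher and 38 lower. With LPS the number, 2, became 0 at a fold of 2, 5 (3 higher, 2 lower) with no filter, where 42 of all 190 were higher and 33 lower, and 1 each with equal mature sums (10 higher and 17 lower of all 108), with equal sums of all RNAs (15 and 9) and with 10 added to each mean (16 and 4). The count over all mature miRNAs at a fold of 2 was 8 higher and 3 lower without LPS and 5 higher and 4 lower with LPS. The 5p share of 0.897%, 1.22%, 0.808% and 0.927% in the 4 groups became 1.58%, 1.89%, 1.39% and 1.51% without the miR-3607 entries, and 0.00854%, 0.0114%, 0.00778% and 0.0101% of all listed RNAs. Of 155 further values, 146 counted as unchanged, which for single arms and ratios meant staying within the counting interval. Among them was the list of miRNAs most alike, which kept 4 of its 5 names at a minimum mean of 20. Many others belong to the 4 rarest arms and their ratios. Their counting intervals are so wide (-3.02 to 4.83 for miR-30a-5p without LPS) that staying within them shows little. The 9 values that moved were miR-30d-5p and miR-30e-5p under the other scalings, all above 0. No library could be left out of the summed level or of the miR-30e ratio, since the reads of their abundant arms were not recovered. Counting error limits the arms below 10 counts, and the spread between libraries limits the others.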
